A study of Drosophila melanogaster with 3 samples.

Results

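Eip75B (FBgn0000568) is an ecdysone-induced gene of Drosophila melanogaster that encodes a nuclear receptor. It spans chr3L:17950953-18064696 of dm6 (release 6 of the genome) on the minus strand, 113744 bp in all. Its members here were the peaks of the reproducible (IDR, irreproducible discovery rate) list whose summit, the position of highest signal, lay in the gene or within 5 kb of it. This rule gave 17 of the 4934 peaks in the list. Gene and members were chosen by measured values, the signal that put these peaks in the list, so their number and signal are given as a description with no test.

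The study mapped chromatin bound by Rabex-5, the product of CG9139, by ChIP-seq: chromatin was sheared by sonication to 200 to 800 bp, recovered with an antibody to GFP, and sequenced. All 3 biological replicates belonged to 1 group. They were whole prepupae of both sexes at 24 h from 1 transgenic line, the strain CG9139-GFP, whose animals stably expressed CG9139 with GFP at its C terminus. Other tissues or stages, and animals without the tagged protein, were not analysed here, so the part of signal that does not depend on the tag was not tested. A whole animal holds many cell types: many cells with little binding and few cells with much cannot be told apart.

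Eip75B, also called E75, is a classic early gene of the steroid hormone ecdysone, whose pulses drive moulting and metamorphosis. Ecdysone binds the receptor EcR and its partner Usp, and this complex switches on early genes such as Eip75B, Eip74EF and br, whose products act on later genes. The E75 protein binds heme, is a relative of the vertebrate Rev-erb receptors, and represses its partner receptor Hr3. Alternative promoters spread along the gene give isoforms that differ at their N termini and share the exons at the 3′ end. The isoform known as E75B lacks a complete DNA-binding domain. The letters of the annotated starts used below were not matched to the names of such isoforms. Rabex-5 is known as a ubiquitin ligase, and as a protein of endosomes that activates the GTPase Rab5.

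The sequences below carry the positions on which the results turn: the 100 bases that end just before the 3 isoform starts with a summit within 500 bp, and the 101 bases centred on 4 intronic summits, those of the second strongest peak, the weakest peak, and the 2 peaks nearest the 5′ end of the gene. All were read from the RefSeq dm6 genome and run 5′ to 3′ on the minus strand, the strand of the gene. Capitals mark GAGAG or its reverse complement CTCTC, the element bound by GAGA factor and Pipsqueak, and would also mark AGGTCA or TGACCT, the site bound by 1 nuclear receptor monomer, which does not occur in these stretches.
Upstream of the RC start, chr3L:17999822-17999921: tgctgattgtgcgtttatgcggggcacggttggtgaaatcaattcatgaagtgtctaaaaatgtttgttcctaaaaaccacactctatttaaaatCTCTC
Upstream of the RA start, chr3L:17971440-17971539: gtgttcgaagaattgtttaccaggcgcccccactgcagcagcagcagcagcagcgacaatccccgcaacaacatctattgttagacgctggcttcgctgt
Upstream of the RD start, chr3L:17961815-17961914: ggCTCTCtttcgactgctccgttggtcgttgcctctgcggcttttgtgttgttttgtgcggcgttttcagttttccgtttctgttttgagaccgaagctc
Second strongest peak, chr3L:18009102-18009202: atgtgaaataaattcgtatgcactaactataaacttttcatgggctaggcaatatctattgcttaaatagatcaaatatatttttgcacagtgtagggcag
Weakest peak, chr3L:18016686-18016786: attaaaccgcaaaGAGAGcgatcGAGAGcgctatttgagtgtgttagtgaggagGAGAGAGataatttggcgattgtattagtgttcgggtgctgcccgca
Peak upstream of the RE start, chr3L:18061950-18062050: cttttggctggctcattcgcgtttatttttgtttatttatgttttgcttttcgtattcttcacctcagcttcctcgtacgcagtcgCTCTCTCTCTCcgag
Peak downstream of the RF start, chr3L:18063369-18063469: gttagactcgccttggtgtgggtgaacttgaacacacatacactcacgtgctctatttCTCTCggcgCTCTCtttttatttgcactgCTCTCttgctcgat

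The CTCTC at the end of the RC stretch is the last 5 bases before transcription starts, centred 19 bp from the summit of the strongest peak of the gene. The RA stretch and the second strongest peak hold neither word, and the matches of the RA peak lie past the start, in the transcribed 5′ UTR. The peak downstream of the RF start holds, besides 3 GAGA elements, 1 E-box (cacgtg, a site of bHLH factors) centred 4 bp from the summit.

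The 17 peaks, numbered here from the 3′ to the 5′ end of the gene, were spread over most of Eip75B and lay mostly in its introns. All 17 summits lay inside the gene and none in the 5 kb on either side. By the Ensembl release 115 annotation, 15 summits were intronic, 2 lay in a 5′ UTR and none lay in coding sequence. The intronic shares of the gene's length and of all peaks of the list are not given here, so these counts are a description. No peaks overlapped, and the distance from a summit to the next was 870 bp at the least, 3507 bp at the median and 19413 bp at the most. The nearest summits of the list outside the gene lay 24325 bp beyond its 3′ end and 13466 bp beyond its 5′ end.

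Over the 7 isoform starts of Eip75B, 3 had a summit of the list within 500 bp, those of RC, RA and RD. In all, 3 of the 17 peaks (17.6%) lay that close to a start, against 37.7% of all peaks of the list within 500 bp of some protein-coding start. The count was also 3 within 200 bp and became 4 within 1000 bp. In contrast, 13 peaks lay over 1 kb and 10 lay over 5 kb from any Eip75B start, and the median distance was 6225 bp.

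**Figure D1:**
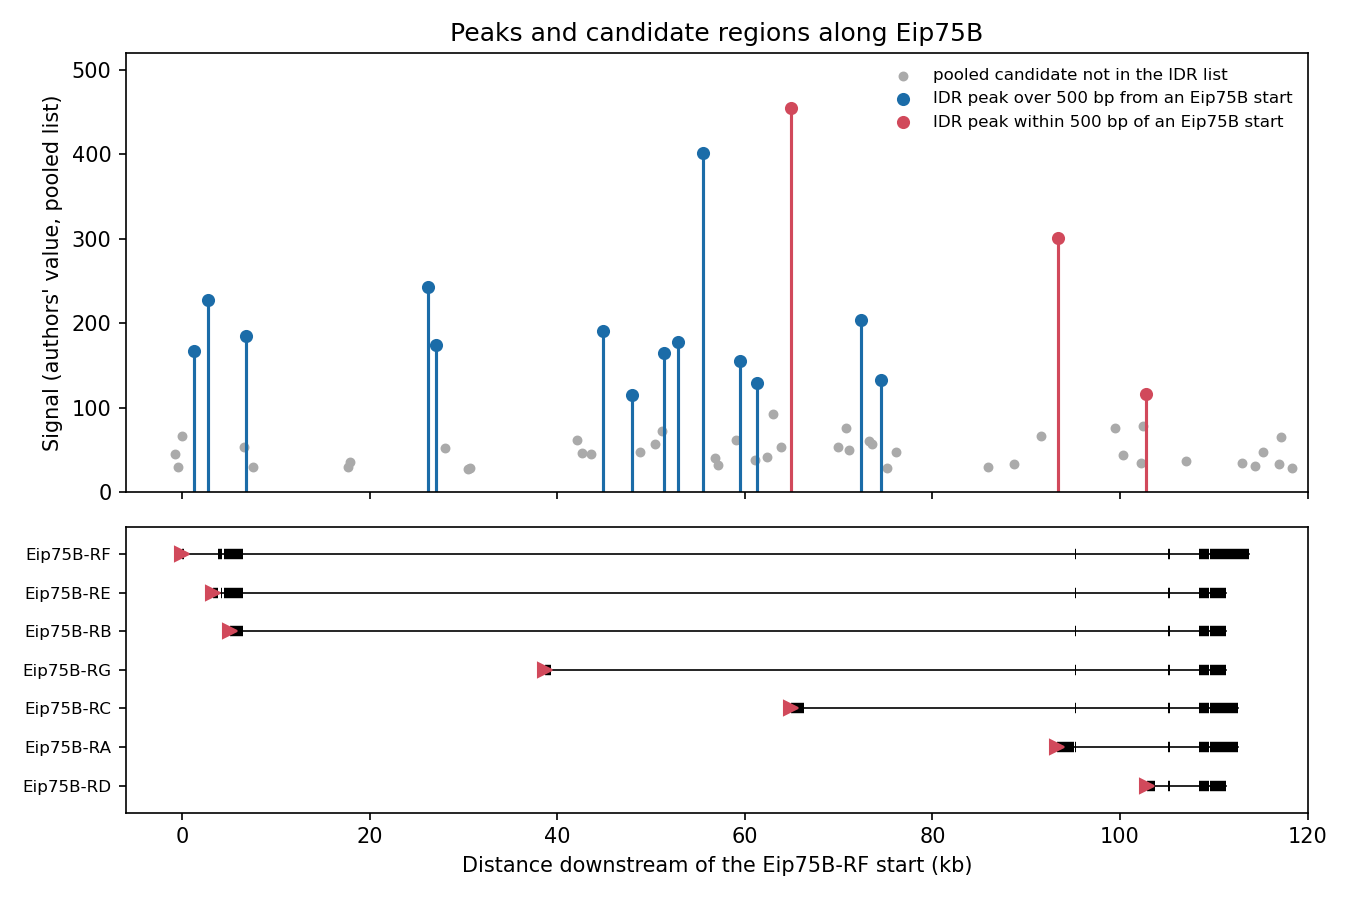
Signal of the 17 IDR peaks (lines with points) and of the other pooled candidate regions (grey points) against distance downstream of the RF start in kb, above the 7 annotated isoforms, with arrowheads at starts and thick bars for exons. The strongest peak, at 454, stands at the RC start, and 7 peaks fall between the starts of RC and RG.

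The RC start carried the strongest peak of the gene. Its summit was at chr3L:17999805, 16 bp downstream of the start and in the 5′ UTR, and its signal of 454 in the pooled replicates (the authors' value for each region, on the scale of their peak caller) ranked 394 in the list. Its signal was 151 in replicate 1, 148 in replicate 2 and 153 in replicate 3. By the strongest overlapping candidate, it was the highest of the 17 peaks in each of the 3 replicates. In replicate 3 that candidate had its summit 123 bp from the pooled summit. Another candidate there, 62 bp upstream of the start, had signal 94.3 and rank 947. That is below the RA peak and the second strongest peak in replicate 3.

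The RA start had a summit 179 bp downstream, at chr3L:17971260 in the 5′ UTR, with a pooled signal of 301 and rank 921. The replicate signals were 118, 69.5 and 101. Among the 17 peaks it ranked 3 by pooled signal, and 5, 4 and 3 in replicates 1, 2 and 3. It was below the RC peak in every replicate, in replicate 3 only by the stronger candidate at RC.

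At the RD start, the summit lay 57 bp upstream, at chr3L:17961871, with a pooled signal of 116 and rank 4260, close to the bottom of the list. The replicate signals were 55.6, 37.4 and 33.5. In replicate 3 the strongest overlapping region had its summit 399 bp away, and the candidate summit nearest the RD start in that replicate had a signal of 21.6 and rank 11488. The RD peak was the lowest of the 3 peaks at starts in every replicate.

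The other 4 starts had no summit of the list within 500 bp. At RE, a peak with pooled signal 227 lay just past that distance, 547 bp upstream, and its replicate signals were 68.0, 72.5 and 72.0. At RF, the 5′ end of the gene, the nearest peak lay 1277 bp downstream, but a pooled candidate below the list, with signal 65.8 and rank 9085, lay 90 bp upstream. In the replicates the nearest candidate summits lay at different places: 83 bp downstream of RF with rank 5474 in replicate 1, 261 bp upstream with rank 1541 in replicate 2, and 502 bp upstream, just past the limit, with rank 7891 in replicate 3. A further pooled candidate 490 bp upstream, with signal 29.1, overlapped candidates among the strongest 4934 in 2 replicates.

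The RB start had its nearest peak 1642 bp downstream, with a pooled signal of 184 and replicate signals of 91.8, 26.0 and 61.1. The RG start was the most distant from any peak, at 6225 bp. In replicate 2 a candidate summit lay 0 bp from RG, but with signal 9.22 and rank 28233 of 30000 it was near the end of that replicate's list. Counting candidates of any rank, 4 of the 7 starts had one within 500 bp in the pooled replicates, 4 in replicate 1, 5 in replicate 2 and 3 in replicate 3.

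Between the RC and RG starts, a stretch of 26211 bp held 7 of the 17 peaks, all in introns. It included the second strongest peak of the gene, whose summit at chr3L:18009152 lay 9331 bp upstream of RC. Its pooled signal was 402, rank 511, and its replicate signals were 133, 119 and 145. By the strongest overlapping candidates, it came directly after the RC peak in each of the 3 replicates. The other 6 peaks of the stretch had pooled signals from 115 to 191, among them the weakest of the gene, at chr3L:18016736. The weakest peak had replicate signals of 24.6, 37.6 and 56.1 and ranked 12636 in replicate 1 but 2600 in replicate 3.

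Of the remaining peaks, 2 lay between RA and RC besides the RC peak itself, at 9586 and 7463 bp downstream of RC, with pooled signals of 133 and 203. Between RG and RB there were 3, and 2 of these flanked a gene for a long non-coding RNA, lncRNA:CR45922, which lies on the same strand within an Eip75B intron at chr3L:18037723-18038280. The stronger of the 2, with pooled signal 243, lay 263 bp upstream of its start. The other, with pooled signal 174, lay 607 bp downstream of that start and 50 bp past its annotated end. Binding near that start cannot be assigned to either transcript.

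Other genes nested in or next to Eip75B were farther from its peaks. The protein-coding genes CG32192 and CG42393, both inside an Eip75B intron, had their nearest summits at 1774 and 4190 bp, and CG44006, past the 5′ end, at 6731 bp. The starts of lncRNA:CR45921 and lncRNA:CR45393 lay 8394 and 14171 bp from the nearest summit. The start of lncRNA:CR43174 lay 27839 bp from the nearest Eip75B summit, and its nearest summit in the list, outside Eip75B, was 7404 bp away. An annotated copy of the transposon roo, 8999 bp long within the same intron, had no summit in any of the lists. Whether reads could be placed within this copy is unknown, so no absence of binding can be read from this.

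The signals of the 17 peaks ran from 115 to 454 with a median of 178, a range of 3.97-fold. Over the whole list the median was 168 and the range 105 to 3054. The peaks of the gene thus lay on both sides of the list's median, 10 of 17 above it, and the strongest ranked 394. By the authors' q-value, 15 peaks were at the highest value the list holds, 3.87 as −log10 q, which 74.8% of all its peaks share.

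The list held exactly the 4934 pooled candidates of highest signal, the lowest of them at 105. What set the number kept is unknown here, as the IDR threshold was not given. Inside the list, the lowest Eip75B member had a signal of 115. Outside it, the highest non-member at the gene, at chr3L:18001741, had 92.5 and rank 5898, and it was a candidate in all 3 replicates.

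Each replicate had its own deposited list of 30000 candidate regions. Each of the 17 peaks overlapped a candidate in all 3 lists, as did 96.8% of all peaks in the IDR list. When only the 4934 strongest candidates of each replicate were counted, 11 of the 17 peaks (64.7%) lay among them in all 3 replicates, against 58% of the whole list, and the other 6 in 2 replicates. By replicate, 15, 16 and 14 of the 17 peaks were among the strongest. Those missed were 2 peaks in replicate 1, the 1 near RB in replicate 2, and 3 in replicate 3, the RD peak among them.

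To set replicates side by side, each signal was divided by that replicate's median over all peaks of the list, 77.0, 50.4 and 58.8 in replicates 1, 2 and 3. On this relative scale the RC peak was 1.95, 2.93 and 2.59, with a mean of 2.49 ± 0.50 (SD, n = 3). The second strongest was 2.18 ± 0.39 and the RA peak 1.54 ± 0.16. The spreads of the first and second overlap, but these are SDs over replicates and not of the difference within a replicate. By the strongest overlapping candidates, their order was the same in each replicate, and both were above the RA peak in every replicate.

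Below these, the order was not fixed. The peak next by mean, upstream of lncRNA:CR45922, was 1.32 ± 0.35 and the one upstream of RE 1.18 ± 0.28. From there, neighbours in this order had overlapping spreads over replicates down to the weakest at 0.67 ± 0.32. The median over the 17 peaks was 0.97, beside 0.98 over the whole list.

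**Figure D2:**
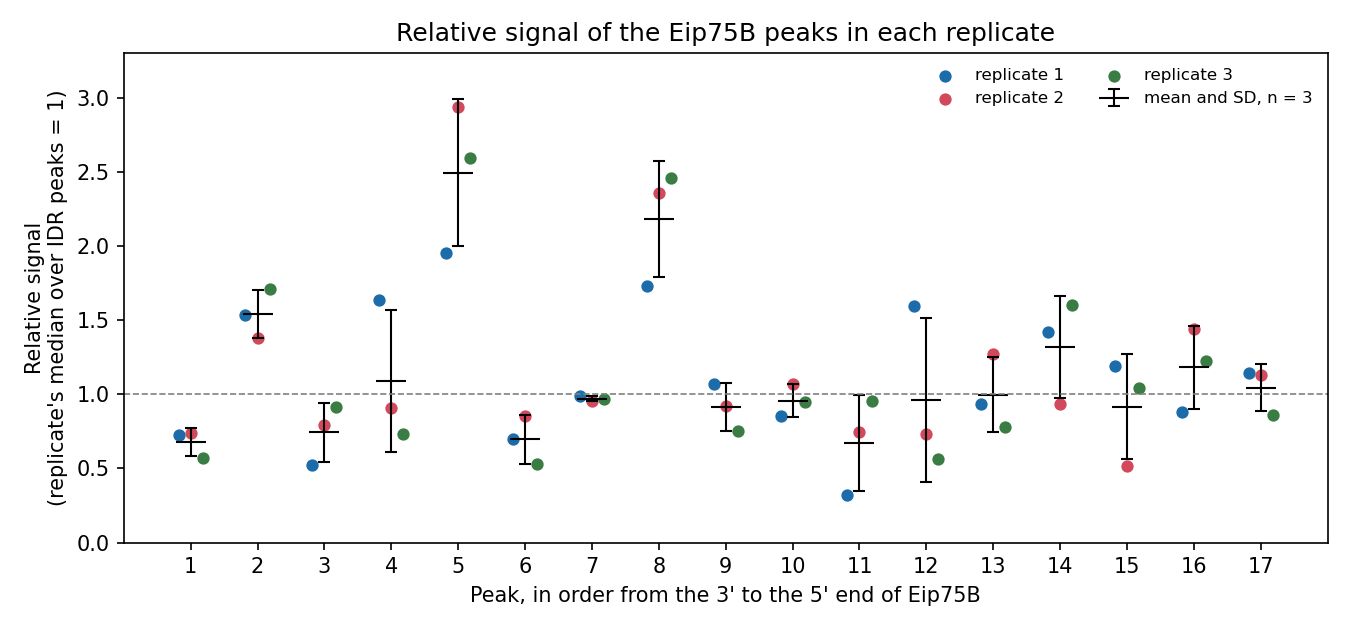
Relative signal (signal divided by the replicate's median over all IDR peaks, so that the dashed line at 1 is that median) of the 17 peaks in replicates 1 to 3, with bars for mean and SD over 3 replicates. By the strongest overlapping candidate, peaks 5 (RC) and 8 are the highest 2 in every replicate, while every other peak changes rank between replicates. At peaks 4, 11, 12 and 15 the highest relative signal is at least 2 times the lowest.

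Among the 17 peaks, the replicates differed most at 4 intronic ones, where the highest relative signal was at least 2 times the lowest. The share of all peaks of the list with such a ratio is not given here. Whether the 4 differ more than the list's peaks do was not tested. At chr3L:18019807 the relative signals were 1.60, 0.73 and 0.56 in replicates 1, 2 and 3, and at chr3L:17992358 they were 1.64, 0.90 and 0.73. Replicate 1 was the high one at both. The opposite held at the weakest peak, with 0.32, 0.75 and 0.95, and at the peak near RB replicate 2 was the low one, with 1.19, 0.52 and 1.04. In the other 13 peaks the ratio was under 2, and the most even was the peak at chr3L:18005255, with 0.97 ± 0.02. Spearman's rho of the relative signals over the 17 peaks was 0.61 between replicates 2 and 3, 0.39 between 1 and 3, and 0.38 between 1 and 2. These are correlations across sites that share a gene, and the range of signals among the 17 is narrow.

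Below the IDR list there were more candidate regions, mostly in introns. The gene with its margins held 61 pooled candidates, of which 17 (27.9%) were in the list, against 16.4% of all pooled candidates. Of the other 44, 35 were intronic, 1 lay in a 3′ UTR, 8 lay outside the gene and none lay in coding sequence. All 3 replicates had a candidate at 15 of the 44, 2 replicates at 12, 1 replicate at 16 and none at 1. Such shares over all pooled candidates outside the list are not given here. The places and the recurrence of the 44 therefore describe this gene alone. Some of the 44 overlapped a listed peak, such as those with summits at chr3L:18013517 and chr3L:18058159. These are not separate sites, and the replicate candidates of the listed peak can count for them too. Replicate 3 had fewer candidates at the gene, 39, than replicates 1 and 2, with 68 and 58, although each list was of equal length.

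Counted over the gene with 5 kb on each side, Eip75B had 1.37 summits of the IDR list per 10 kb. This was 3.82 times the 0.36 per 10 kb of the genome. The same margins were added to every gene below. Among the 1020 protein-coding genes of 20 kb or more, it ranked 71 by this density, above 93% of them, and tied for rank 5 by number of summits. The median long gene had 1 summit, and 357 had none. Of the 87 genes of 100 kb or more, where the median was 2 summits, Eip75B ranked 3 by density and 2 by number, the latter tied with 2 other genes. From the strongest 4934 candidates of each replicate, the gene had 19, 19 and 16 summits and density rank 48, 50 and 74 in replicates 1, 2 and 3.

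The long genes with nearest density were kis, Pax, tai, CG43658 and Tlk above it, with 1.40 to 1.38 summits per 10 kb, and tna, stx, mod(mdg4), nkd and FER below it, with 1.37 to 1.35. These differences come to less than 1 summit over the length of Eip75B, so the order among these neighbours is not firm. Most alike in number of summits and length together, by the sum of their relative differences from Eip75B, were CG1677 with 17 summits in 124709 bp, CG43658 with 16 in 105012 bp and Snoo with 17 in 93010 bp.

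**Figure D3:**
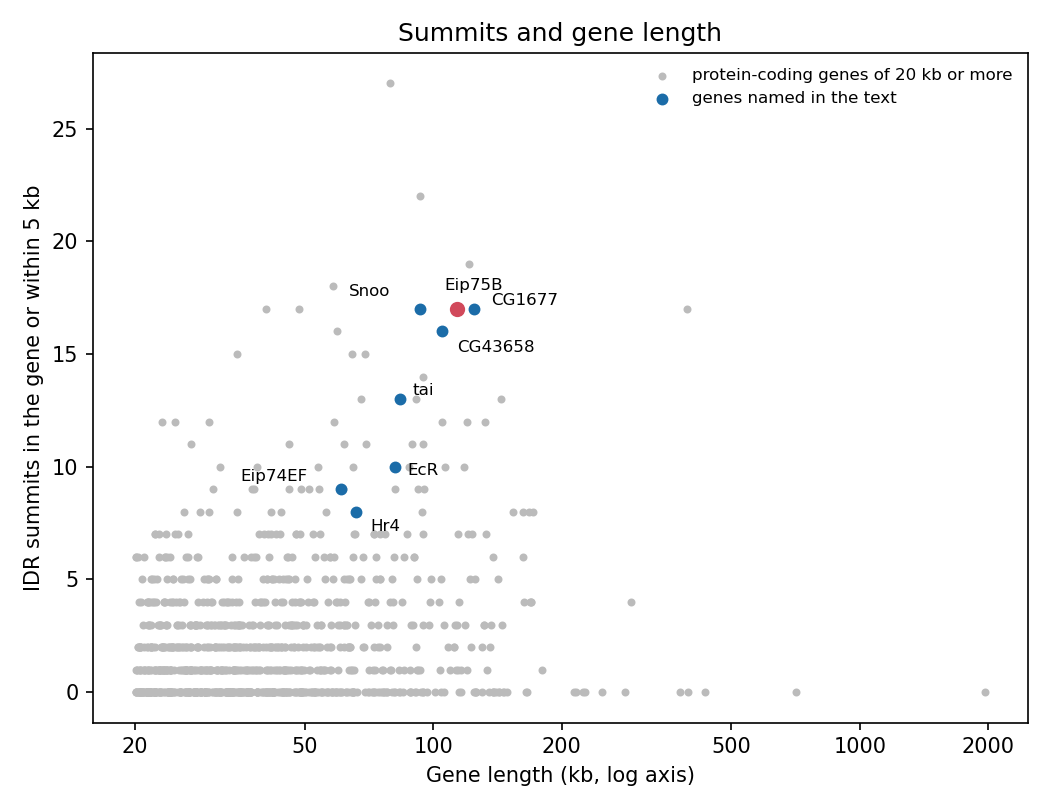
Number of IDR summits in or within 5 kb of each of the 1020 protein-coding genes of 20 kb or more, against gene length in kb on a log axis, with Eip75B in red and other named genes in blue. Eip75B, with 17 summits, lies well above the median of 1.

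The values of Eip75B and these 3 genes are given side by side, without a test. Eip75B had a summit within 500 bp of 3 of 7 starts, CG43658 of 2 of 5, and CG1677 and Snoo of 0 of 3 each. The highest signal was 454 at Eip75B, 683 at CG1677, 1287 at CG43658 and 433 at Snoo. The peaks of CG1677 were strongest in all 3 replicates in 14 of 17 cases, those of CG43658 in 10 of 16, those of Snoo in 6 of 17, and those of Eip75B in 11 of 17. GAGAG lay within 100 bp of 9 summits at Eip75B, 6 at Snoo, and 1 each at CG1677 and CG43658.

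Bound genes, those with a summit within 500 bp of a start, made up 13.1% of the 13968 protein-coding genes. Among 20 other genes of the ecdysone response, 13 were bound (65.0%) and 19 had a summit within 5 kb, with a median of 3.5 summits, against 0 over all protein-coding genes, of which 37.0% had any. Of the 20, none had as many summits as Eip75B, and the most were 13 at tai (a coactivator of EcR), 10 at EcR, 9 at Eip74EF (an early ETS-family factor) and 8 at Hr4 (a nuclear receptor of the same response). By density the order differed, since 4 of the 20 were above the 1.37 summits per 10 kb of Eip75B: E23 with 2.34, crol with 1.59, usp with 1.48 and tai with 1.39. Long genes have more room for peaks, and length was not matched here. In short genes such as usp, 3514 bp long, the added margins make up most of the length counted. The list was drawn up with these data known, so its share is a description.

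Eip75B itself is also 1 of 21 genes of the nuclear receptor family listed here. Of the 20 others, 9 were bound (45.0%) and 16 had a summit within 5 kb, with a median of 1. EcR and Hr4 had the most summits of these 20, followed by ftz-f1 with 5 (a competence factor of the prepupa), and Eip78C and Hnf4 with 4 each. Hr3, the partner that E75 represses, had 2 summits within 5 kb and none within 500 bp of a start.

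The places of the peaks can be set beside those at the other ecdysone genes with most summits. Within 500 bp of their own starts lay 3 of 17 summits at Eip75B, 2 of 13 at tai, 1 of 10 at EcR, 1 of 9 at Eip74EF and 1 of 8 at Hr4. Median signals were 178, 160, 172, 134 and 188 in the same order. GAGAG was near 52.9% of the summits at Eip75B, 53.8% at tai, 60% at EcR, 55.6% at Eip74EF and 25% at Hr4. No test was made of any of these differences.

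The sequence within 100 bp of each summit was searched on both strands for 10 words. GAGAG occurred in 9 of the 17 windows (52.9%), against 34.5% of the windows of all 4934 peaks. The 9 were the windows at the RC, RA and RD starts, both windows at the 5′ end of the gene shown above, the weakest peak, and 3 others in introns. The window upstream of RE held 6 matches, overlapping matches included, and the RA and weakest windows 4 each. The GC content had a median of 39.8% over the 17 windows and 38.8% over the list, and single windows ranged from 24.4% to 58.7%.

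AGGTCA, the site of a nuclear receptor monomer, occurred in 1 of the 17 windows (5.88%), against 3.40% of all. It was in the window of the intronic peak at chr3L:18003396, centred 62 bp from the summit and outside the 50 bp to each side that the printed windows cover. The E-box CACGTG also occurred in 1 window, the one near RF printed above, against 1.91% of all, and the AP-1 site TGANTCA in 1, against 4.46%. In 17 windows 1 match is the smallest share above 0 that can be seen, so these 3 words cannot be set apart from the shares of all peaks.

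Words of other factors did not occur in the 17 windows: TATCGATA, the DRE bound by DREF, GGTCACACT, the Motif 1 bound by M1BP, CAGGTAG, bound by Zelda, and AACCGGTT, bound by Grainy head. Each is rare in all windows too, at 0.87%, 0.57%, 0.83% and 0.34%. The CA repeat CACACA occurred in 2 windows (11.8%), against 22.2%, and TATAAA in 3 (17.6%), against 28.7%. A match is a word in the sequence and no measure of a factor's binding, and a missing word says no more than that these letters are not in the window.

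**Figure D4:**
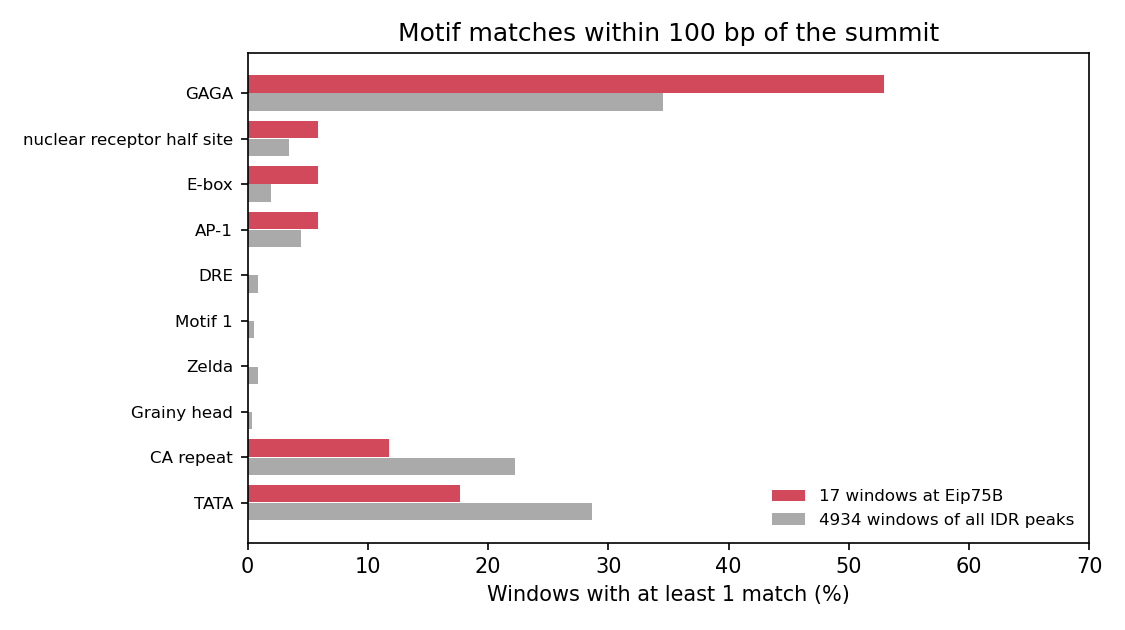
Percent of windows within 100 bp of the summit that hold each of 10 words, on either strand, for the 17 peaks of Eip75B (red) and all 4934 peaks (grey). GAGA is in 52.9% of the Eip75B windows and 34.5% of all, and the other words are in at most 3 of the 17 windows.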

How the data were processed

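Anti-GFP ChIP-seq of 3 biological replicates (1 group) was taken from the dm6 lists that the authors deposited: 1 list of 30000 candidate regions for each replicate, 1 for the pooled replicates and the IDR list. The signal column and the −log10 q-value column are the authors' own deposited values per region. The aligner, peak caller, IDR threshold and control material were not given in the sources used here. No read counts were used, so depth is unknown and no counting interval is given. The dm3 lists were not used here.

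From these, summits were assigned to genes of Ensembl release 115 and starts compared with RefSeq, where all 7 were the same. A peak's replicate value is that of the strongest candidate overlapping it by at least 1 bp. Relative signal is the signal over the replicate's median at all IDR peaks, which removes differences in scale between the lists. The counting steps were tested on simulated data. Python 3.11.15, pandas 2.3.3, numpy 2.4.6, scipy 1.17.1 and matplotlib 3.10.9 were used, with no significance test.

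The named genes were Eip75B, genes with a start nearest to its peaks or in its window, up to 4 by summits from each of the 2 gene lists with ties, 5 long genes of nearest density on each side, and 3 most alike. Hr3, E23, crol and usp were added after their values were seen, and Eip71CD and Eip55E were matched through RefSeq synonyms. The members and lists were chosen with earlier results of these data known. Labels do not say whether replicates shared a culture or collection.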

Additional observations from a re-analysis of the deposited data

How the results depend on the processing

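A count was taken as moved when it differed from the main count by over 1.5 times, and the density rank and relative signal when they differed by at least 1 SD over the replicates, 14.5 ranks and 0.50. By these limits 6 of 36 alternative values moved. With peaks above the list's median signal alone, the gene had 10 summits. With a replicate left out, peaks of the list were kept if they were among the strongest candidates of both others. The list itself was made from all 3 replicates, so the replicate left out had still helped to choose every peak. Under this filter the count of summits was 12 to 14, and with all 3 replicates required it was 11. The density rank was 51 to 78, with 51 when replicate 3 was left out. The number of summits near a start was 2 to 3. The peaks strong in every replicate counted were again 12 to 14, which is the same count and no separate check. It cannot fall below 11 when a replicate is left out. The 11 peaks strong in all 3 replicates became 8 with summits within 100 bp, 9 with reciprocal overlap of 50% and 16 with the 10000 strongest. GAGAG was in 8 of 13, 6 of 12 and 7 of 14 windows without replicates 1, 2 and 3. Shares of all peaks under the same filter are not given here. Within 50 bp GAGAG was in 8 of 17, against 19.3% of all. With a replicate left out, windows with AGGTCA were 0 to 1, 0 without replicate 1 or replicate 2, and 0 within 50 bp. The highest relative signal was 2.27 to 2.76 with a replicate left out and 8.33 when scaled by the median of all candidates, a lower divisor by construction. Leaving out a replicate for the GAGAG and AGGTCA counts was chosen after seeing the data. Without counts, precision rests on the 3 replicates.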
